A study of Bos taurus with 12 samples.

Results

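The comparison described here asks which miRNAs of bovine granulosa cells had a difference between subordinate follicles (SF) and dominant follicles (DF) that changed from day 3 to day 7 of the cycle. The quantity is the follicle class by day interaction, the SF minus DF log2 difference at day 7 less the same difference at day 3. A negative value means that SF stood lower against DF at day 7 than at day 3, and a positive value that SF stood higher. Because the same 4 group means enter, the value also equals the day 7 minus day 3 log2 change in SF less that in DF. Of 755 mature miRNA names in the counts, 378 were detected, with 1 read or more in no fewer than 2 of the 3 replicates of any group, and were tested over all 12 libraries, and 247 of them met this rule in all 4 groups.

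MiRNAs are short RNAs that are cut from hairpin precursors and guide a silencing complex to partly matching mRNAs, which lowers the translation and the stability of those mRNAs. Granulosa cells line the follicle, make estradiol, divide while the follicle grows and turn into luteal cells after ovulation. In cattle a cohort of follicles grows in a wave, 1 follicle becomes dominant, and the subordinate ones stop growing and regress.

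All animals were Simmental heifers whose estrus had been synchronized with a prostaglandin analogue and a GnRH analogue, and the labels name no other treatment. SF and DF were told apart by diameter, with larger diameters for both classes at day 7, so that the largest SF of day 7 were as wide as the smallest DF of day 3, and the cells were spun from follicular fluid pooled by follicle size. The 4 groups were SF at day 3, DF at day 3, SF at day 7 and DF at day 7, with 3 libraries each that the labels call biological replicates. Different heifers were slaughtered on the 2 days, and the methods of the study list no more dominant follicles at day 7 than there were libraries of them, so that the DF libraries of that day rest on very few follicles. Total counts with 1 entry per mature name ran from 160418 to 405129 reads per library. Levels are given as normalized counts, the reads divided by a median-of-ratios factor of each library. The gonad miRNA miR-202 was present in all 12 libraries, at 364 to 3673. Among markers of other cells, 4 leukocyte miRNAs summed to 783, 3110 and 8636 in the DF libraries of day 7, the last in replicate 2, and to at most 705 in any other library. The labels do not tie a replicate to an animal, and the p values therefore measure the spread between these libraries.

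The interaction was called for 100 of the 378 miRNAs, 26.5%, in edgeR's quasi-likelihood test, for which the absolute log2 value had to reach 1, with p no higher than 0.05 and a false discovery rate no higher than 10%. It was negative for 54 (14.3% of those tested) and positive for 46 (12.2%). The median over all 378 miRNAs was 0.02. Against this background, 5.67% of 335 miRNAs were called between SF and DF at day 3 and 33.4% of 350 at day 7, each in its own 6 libraries. The sign of the SF minus DF difference turned between the days in 82 of the 100 called miRNAs and in 196 of all 378. Across the 185 miRNAs with a mean of at least 10 normalized counts, the differences of the days had a Pearson's r of -0.31 and a Spearman's rho of -0.23, a description only, since the values of a day share its 6 libraries. Their SD was 0.692 at day 3 and 1.76 at day 7.

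Each called miRNA was placed in a class by the separate tests of the 2 days. In 7 the difference was called on both days with opposite signs (reversed), in 76 at day 7 alone (appeared), in 2 at day 3 alone (vanished) and in 15 on neither day. No miRNA with a called interaction was called in the same direction on both days. The reversed and the vanished miRNAs all had negative interactions, while the class that appeared held 38 of each sign. An appearance or a disappearance here is a matter of passing thresholds on a day, and the interaction is the test that the days differed. A day with too few reads to test counted as no call, as at day 3 for miR-184, miR-365-5p and miR-449b.

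**Figure D1:**
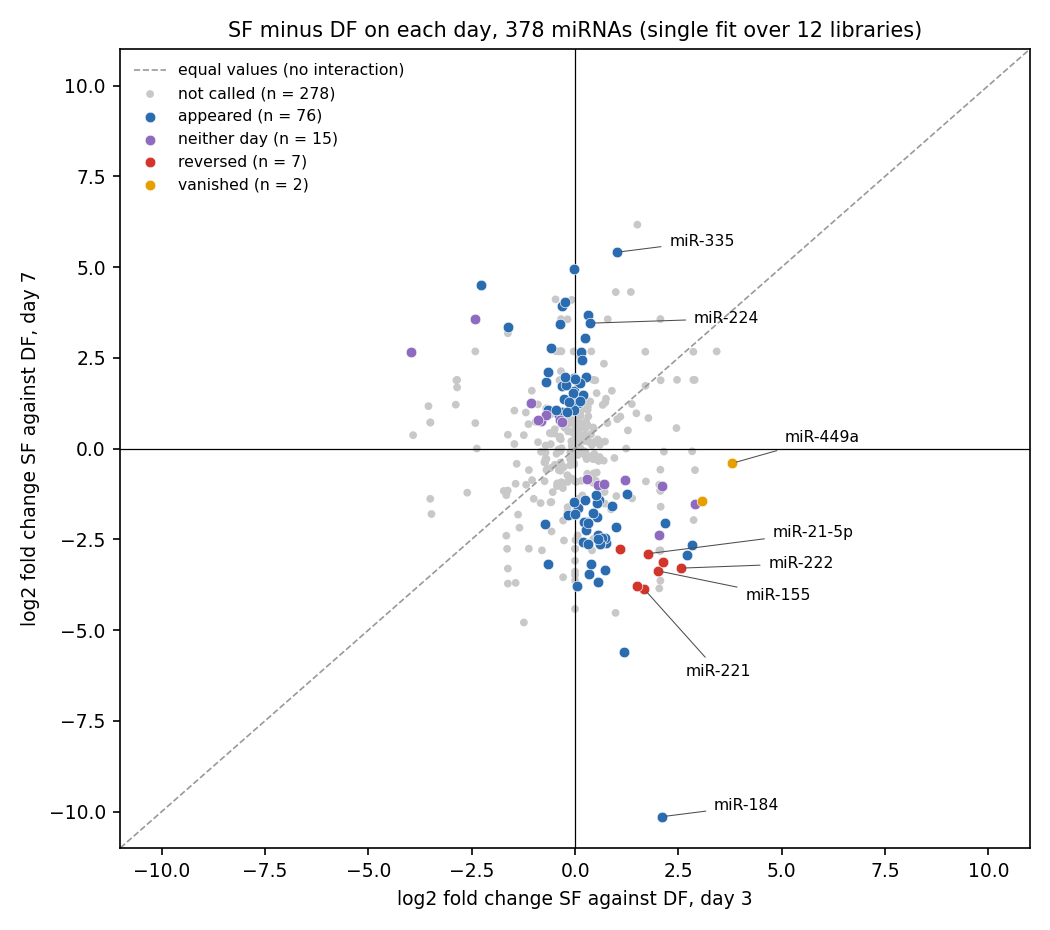
Log2 fold change of SF against DF at day 3 (horizontal axis) and at day 7 (vertical axis) for the 378 miRNAs, taken from a single fit over the 12 libraries; each point is a miRNA coloured by its class, and the dashed line marks equal values on both days. The 7 reversed miRNAs lie together at lower right, the 76 that appeared mostly form a vertical band near a day 3 value of 0, and miR-184 lies farthest down.

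In 95 of the 100 called miRNAs, and in 291 of the 378 tested, the change from day 3 to day 7 was larger in DF than in SF. Day 7 against day 3 was itself called in DF for 93 of them, where 40.3% of 360 miRNAs were called, and in SF for 1, miR-155, where 0.593% of 337 were called. The median absolute log2 change between the days over the 100 miRNAs was 2.55 in DF and 0.33 in SF, against 1.26 and 0.35 over all 378. For 77 of the 100, all 3 DF libraries of day 7 lay outside the range of the other 9 libraries, above it for 41 and below it for 36. The same was true of 31.7% of all miRNAs tested. DF at day 3 stood outside in this way for 21 of the 100, SF at day 7 for 2 and SF at day 3 for 1. Over all miRNAs tested these shares were 6.61%, 0.529% and 2.38%, in this order. In bulk samples such as these, fewer cells that hold a miRNA and less of it per cell cannot be told apart.

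The 5 exceptions, named after their values were seen, were miR-100, miR-451, miR-20b, miR-2344 and miR-2373-3p. Of these, miR-100 was abundant, going from 895 ± 161 normalized counts (SD, n = 3) to 462 ± 48.6 in SF between the days and from 609 ± 102 to 935 ± 365 in DF. The other called miRNAs that were not called between the days in DF were miR-27b and miR-296.

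**Figure D2:**
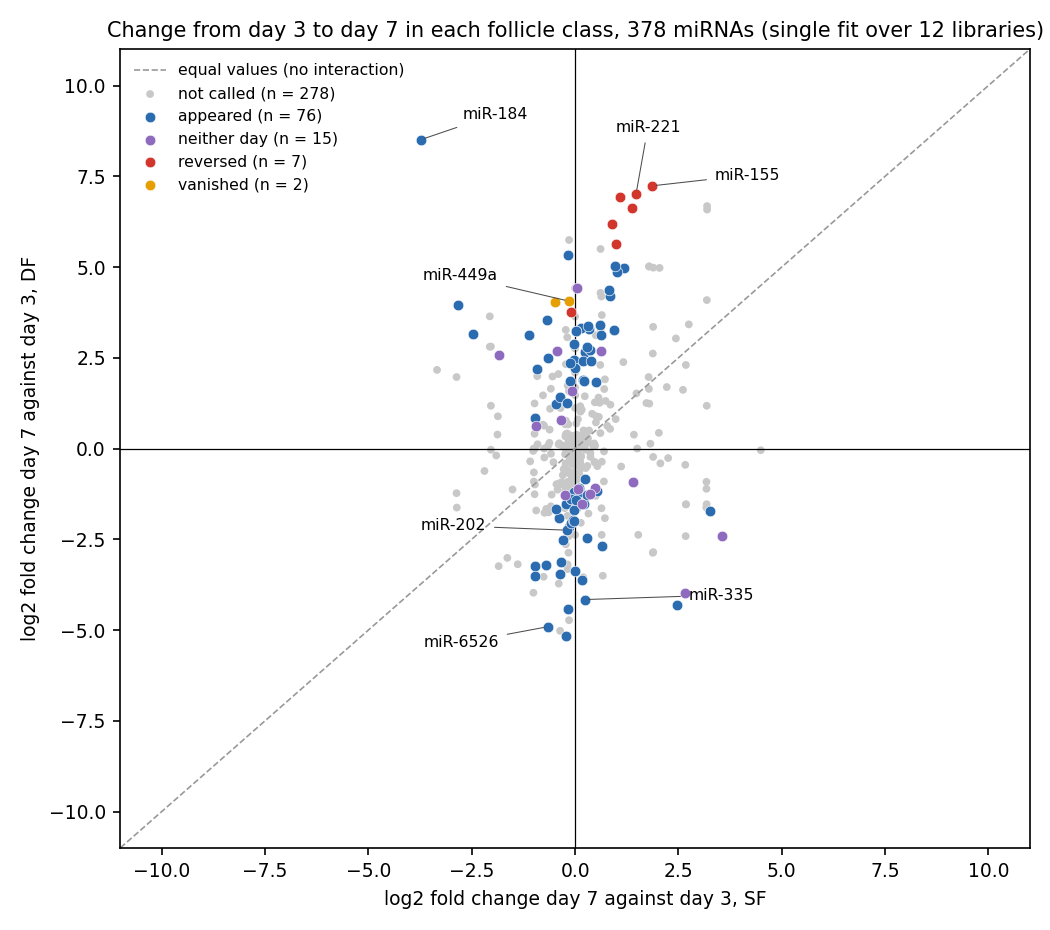
Log2 fold change of day 7 against day 3 in SF (horizontal axis) and in DF (vertical axis) for the 378 miRNAs, from a single fit over the 12 libraries; points are coloured by class, and the dashed line marks equal change in both follicle classes. Called miRNAs spread along the vertical axis, and 95 of 100 changed more in DF than in SF.

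The 7 reversed miRNAs were both arms of miR-21, miR-155, miR-221, miR-222, miR-708 and miR-214. Several are well known: miR-21 is a survival-associated miRNA, the neighbours miR-221 and miR-222 share a seed and target the cell cycle inhibitor p27, miR-155 is best known from activated lymphocytes and macrophages, and miR-214 is made from the same transcript as miR-199a. All 7 followed the order DF day 3, SF day 3, SF day 7, DF day 7 by group mean but for miR-214, whose SF mean was slightly lower at day 7. In each, every DF library of day 3 lay below all 9 others and every DF library of day 7 above all 9 others. Over all 378 miRNAs tested, the former was true of 16 and the latter of 61.

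The most abundant was miR-21-5p. In normalized counts its DF libraries held 670, 727 and 814 at day 3 and 36995, 29826 and 43268 at day 7. Its SF libraries held 2558, 2483 and 2433 at day 3 and 2206, 7805 and 4761 at day 7. The SF libraries were close together at day 3 and spread at day 7, where replicate 1 stayed near the day 3 level, and on neither day did SF and DF overlap. The interaction was -4.66 on the log2 scale (standard error 0.44, adjusted p = 1.11e-06, edgeR). The other arm, miR-21-3p, had 9.02, 11.6 and 17.6 in DF and 46.4, 64.6 and 56.2 in SF at day 3, and 1205, 1080 and 1462 in DF and 52.6, 224 and 156 in SF at day 7, with an interaction of -5.26 (standard error 0.57, adjusted p = 2.81e-06, edgeR). Both arms thus showed the same order of the groups, and in both SF replicate 1 was the lowest of its group at day 7.

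Among the reversed miRNAs, miR-155 was the only one that was also called between the days in SF. This SF call depended on the setting. No miRNA was called between the days in SF with a filter of 10 reads in 3 libraries. The same held without SF replicate 1 or 2 of day 3 or without SF replicate 2 of day 7. Without SF replicate 1 of day 7, 20 miRNAs were called. It had 21.8, 21.4 and 35.2 normalized counts in DF and 119, 82.1 and 109 in SF at day 3. At day 7 it had 3565, 5215 and 2937 in DF and 146, 555 and 433 in SF. All SF libraries of day 7 lay above all SF libraries of day 3, and the interaction was -5.37 (standard error 0.55, adjusted p = 1.75e-06, edgeR).

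The pair miR-221 and miR-222 moved alike. For miR-221 the libraries held 15.8, 18.3 and 12.7 in DF and 59.7, 43.1 and 47.6 in SF at day 3, and 1846, 3074 and 1245 in DF and 46.3, 239 and 137 in SF at day 7. For miR-222 they held 3.76, 4.28 and 11.7 in DF and 40.1, 24.2 and 46.4 in SF at day 3, and 644, 1164 and 526 in DF and 37.4, 122 and 78 in SF at day 7. The interaction of miR-221 was -5.54 (standard error 0.65, adjusted p = 6.65e-06, edgeR). That of miR-222 was -5.85 (standard error 0.67, adjusted p = 5.41e-06, edgeR). SF replicate 1 at day 7 again held fewer counts than the other SF libraries of its day in both miRNAs, within the range of SF at day 3 in each.

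The remaining reversed miRNAs, miR-708 and miR-214, were low at day 3. DF and SF libraries of day 3 held 5.26, 3.67 and 2.93 and 12.5, 14.8 and 7.33 normalized counts of miR-708, and those of day 7 held 261, 346 and 293 and 5.35, 32.4 and 27.3, with an interaction of -5.30 (standard error 0.70, adjusted p = 2.30e-05, edgeR). For miR-214, DF and SF held 9.77, 15.9 and 4.89 and 18.7, 26.9 and 23.2 at day 3, and 138, 105 and 193 and 20.5, 22.3 and 21.4 at day 7, with an interaction of -3.86 (standard error 0.50, adjusted p = 1.98e-05, edgeR). SF held miR-214 at nearly the same level on both days, with a log2 change of -0.09 between the days against 3.77 in DF. At day 3 these were the weakest of the 7 (adjusted p = 0.0697 and 0.0739, edgeR), and each was still classed as reversed in 15 of 26 alternative analyses, against 26 of 26 for the other 5.

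Together the 7 went from 0.333% ± 0.057 of the reads (SD, n = 3) at day 3 to 16.4% ± 0.97 at day 7 in DF, and from 1.05% ± 0.04 to 1.95% ± 1.11 in SF. The 7 were chosen because their differences turned, so the turned order of these shares describes them and tests nothing. The DF share of day 7 was between 15.3% and 17.0% in every library, most of it from miR-21-5p. The part of other cells in the result was not tested.

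**Figure D3:**
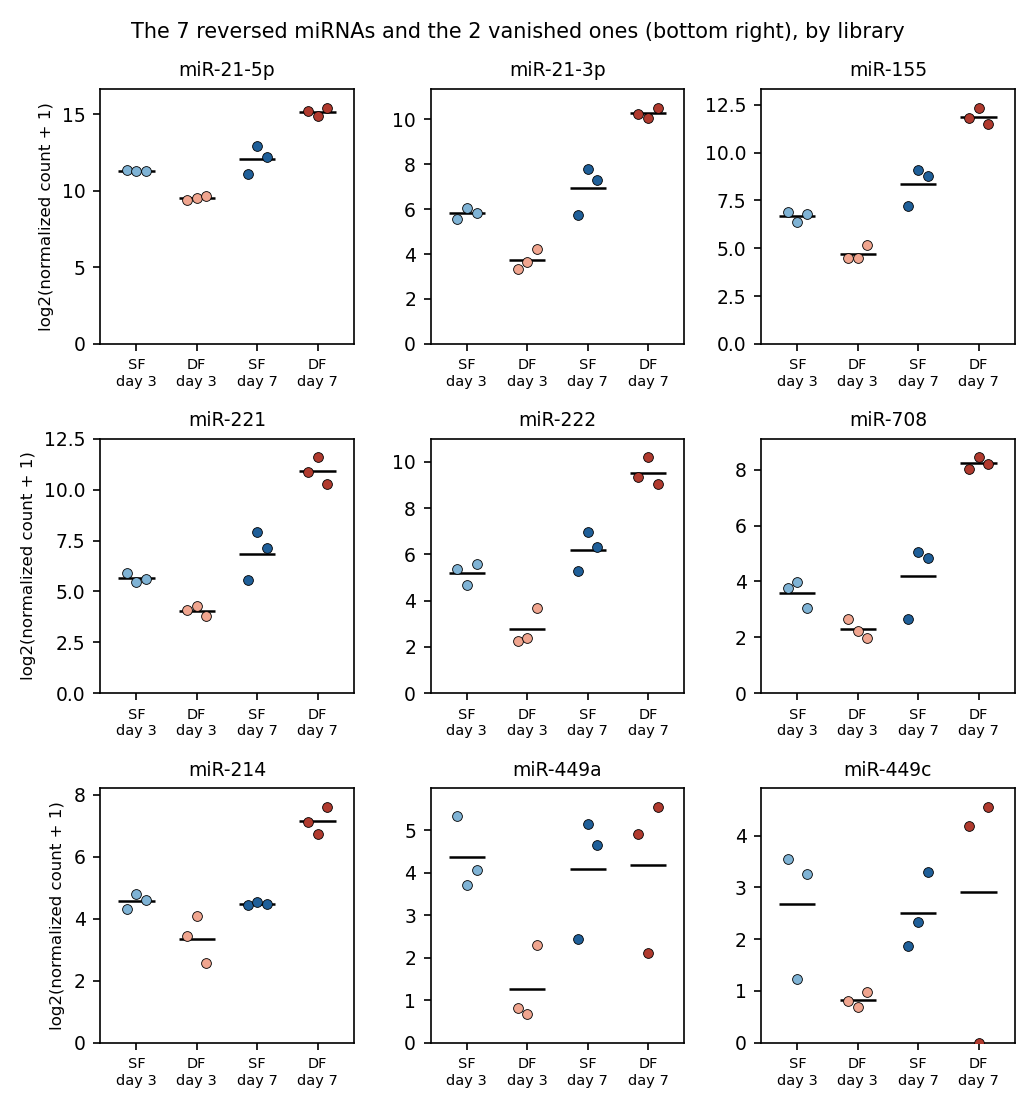
Log2(normalized count + 1) of the 7 reversed miRNAs and, in the last 2 panels, of the 2 vanished ones in each of the 12 libraries; points are libraries, bars are group means of the plotted values, and each panel has its own vertical axis from 0. In the reversed miRNAs DF is the lowest group at day 3 and the highest at day 7, whereas DF and SF of day 7 overlap for miR-449a and miR-449c.

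The 2 vanished miRNAs were miR-449a and miR-449c, members of the miR-34 and miR-449 family, which is known from multiciliated epithelium and acts downstream of p53 in its miR-34 branch. MiR-449a had 0.751, 0.611 and 3.91 normalized counts in DF and 39.2, 12.1 and 15.9 in SF at day 3. At day 7 it had 29.1, 3.33 and 45.9 in DF and 4.46, 34.4 and 24.4 in SF. The groups were separate at day 3 and overlapped at day 7, when 1 of the 3 DF libraries stayed at the low level, and the interaction was -4.21 (standard error 1.18, adjusted p = 0.0133, edgeR).

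Counts of miR-449c were lower still, at 0.751, 0.611 and 0.977 in DF and 10.7, 1.35 and 8.55 in SF at day 3 and 17.1, 0 and 22.5 in DF and 2.67, 4.05 and 8.77 in SF at day 7. Its interaction of -4.51 (standard error 1.31, adjusted p = 0.0154, edgeR) was lost in 1 of 26 alternatives. Their genome neighbour miR-449b also had a negative interaction of -5.50 but was called at day 7 alone, with group means of at most 4.35 normalized counts and too few reads to be tested at day 3. It had 2 reads in SF and none in DF at day 3, so its fitted value is no measured fold. Its call held in 19 of 25 alternatives. SF means of miR-449a were 22.4 and 21.1 on the 2 days, so the loss of its difference came with the DF mean, which went from 1.76 to 26.1. Within the miR-34 and miR-449 list 3 of 5 members, these neighbours, were called, all negative, beside 14.3% with a negative call among all miRNAs tested. MiR-34a and miR-34c were not called, with -2.26 and 1.39.

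Of the 19 miRNAs called at day 3, 9 had a called interaction, as did 83 of the 117 called at day 7. The other 10 of day 3, named after their values were seen, are not shown to differ between the days. Of these, miR-2885, miR-3432, miR-34a and miR-677 were called at day 7 too, with interactions from -2.26 to 0.47. MiR-1246, miR-141, miR-182, miR-183, miR-212 and miR-34c were called at day 3 alone, with interactions from -1.89 to 1.67 and adjusted p values from 0.192 to 0.718 (edgeR), so their loss of a call at day 7 is not a called change. The neighbours miR-182 and miR-183 held more counts in DF than in SF at day 3, by -1.16 and -1.45 on the log2 scale (SF minus DF), and SF replicate 2 of day 7 exceeded the other SF libraries of that day with 589 and 249 normalized counts against 47.2 and 120, and 21.4 and 36.1.

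Of the 76 miRNAs that appeared, 38 had lower counts in SF at day 7. Many belonged to families. All 4 tested members of miR-181, all 5 of miR-199 and miR-214 (1 of them reversed), both of miR-146, both arms of miR-455 and both arms of miR-365 had called negative interactions, as did 5 of 7 of the miR-23, miR-27 and miR-24 list and 3 of 4 of miR-29 (with 1 of each called on neither day), beside 14.3% with a negative call among all miRNAs tested. In miR-29 the calls of miR-29b and miR-29c held in 14 of 25 and 17 of 25 alternatives. The median interactions of these 7 lists were -2.70, -3.21, -2.84, -3.37, -4.58, -2.21 and -2.81, in this order, beside 0.02 over all miRNAs tested. MiR-455-3p, at -2.51, was not called without SF replicate 1 of day 3 (adjusted p = 0.144, edgeR). MiR-199a-3p and miR-199c listed nearly the same counts and count as a single measurement.

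For miR-199a-3p, which is made from the miR-214 transcript, the counts were 120, 151 and 128 in DF and 204, 167 and 231 in SF at day 3, and 1225, 1228 and 1338 in DF and 174, 236 and 207 in SF at day 7. SF stayed above DF in every library at day 3 and fell below it in every library at day 7, as in miR-214, but the day 3 difference of 0.55 was under the threshold of 1. The interaction was -3.21 (standard error 0.28, adjusted p = 4.99e-07, edgeR), the smallest adjusted p of any miRNA tested, shared with miR-199c. The partner arm miR-199a-5p had a day 3 difference of 0.94 (adjusted p = 0.000377, edgeR), just under that threshold, and an interaction of -3.15.

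MiR-181a, an miRNA known for tuning antigen receptor signalling, had 455, 630 and 576 in DF and 887, 839 and 1007 in SF at day 3, and 4956, 6662 and 4996 in DF and 678, 1175 and 1144 in SF at day 7. Here too the libraries were separate on both days with SF above DF at first and below it later, and the interaction was -3.19 (standard error 0.31, adjusted p = 1.30e-06, edgeR). The other members had -2.92 (miR-181b), -2.42 (miR-181c) and -2.48 (miR-181d).

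In the miR-23, miR-27 and miR-24 clusters, which are made from a pair of related transcripts, the copies differed in size. For miR-23a the counts were 23.3, 35.5 and 39.1 in DF and 50.8, 32.3 and 42.8 in SF at day 3, and 522, 1041 and 471 in DF and 50.8, 101 and 71.1 in SF at day 7, with an interaction of -3.56 (standard error 0.49, adjusted p = 2.79e-05, edgeR). The groups overlapped at day 3 and were far apart at day 7. MiR-27a-3p had -3.06, miR-23b-3p -2.21 and miR-24-3p -2.22, whereas miR-27b, the most abundant of them with 20214 ± 5105 normalized counts in DF at day 7, had -1.13 and was called on neither day (-0.94, under the threshold, without DF replicate 3 of day 7).

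The pair miR-193b and miR-365, whose precursors are neighbours, also went together. MiR-193b had 19.5, 20.8 and 20.5 in DF and 37.4, 22.9 and 39.1 in SF at day 3, and 605, 915 and 485 in DF and 33, 107 and 57.5 in SF at day 7, with an interaction of -4.06 (standard error 0.53, adjusted p = 1.98e-05, edgeR). For miR-365-3p the interaction was -2.37 and for miR-365-5p -6.80, the latter on 15 reads in the DF libraries of day 7 and 3 reads elsewhere. Without SF replicate 1 of day 3 the value of miR-365-5p was -3.96 and not called. Every DF library of day 7 lay above the other 9 for miR-193b, and the SF and DF libraries of day 3 were separate by a small margin.

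MiR-184 had the largest interaction of all, -12.24 (standard error 1.99, adjusted p = 0.0003, edgeR). It had 129, 105 and 131 raw reads in the DF libraries of day 7, none in any SF library of that day, and 5 reads in the 6 libraries of day 3, of which 4 were in SF replicate 1. Against the limit of 3 reads over the 3 SF libraries it was at least 132-fold higher in DF at day 7. The fitted value is no measured fold, and without SF replicate 1 of day 3 it was -8.51 with an adjusted p of 1.00 in edgeR, so the interaction call rests on that library while the day 7 difference does not.

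MiR-143 and miR-145, which are transcribed together and mark smooth muscle and stroma, fell into separate classes by the size of their day 7 differences, -1.32 and -0.88. MiR-143 had 2112, 3793 and 2338 in DF and 4757, 3581 and 3926 in SF at day 3, and 9633, 6474 and 13883 in DF and 2793, 4701 and 3836 in SF at day 7. The groups overlapped at day 3 and were separate at day 7. The interaction was -1.98 (standard error 0.39, adjusted p = 0.000957, edgeR) for miR-143, which appeared, and -1.66 (standard error 0.43, adjusted p = 0.00761, edgeR) for miR-145, which was called on neither day.

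Other miRNAs of this side were miR-130b with an interaction of -2.79, miR-107 with -1.70 and miR-28 with -1.65. MiR-28 belongs to the same seed family as miR-708, which was reversed, and the arms of miR-151, the other 2 tested members of that list, were not called, with 0.18 and 0.20.

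The other 38 miRNAs that appeared were higher in SF at day 7. In 34 of them every DF library of day 7 lay below the other 9 libraries, as in 59 of all 378 tested. All 3 tested members of the X-linked neighbours miR-224, miR-452 and miR-3431 were among them. MiR-224, which is known to raise estradiol output of granulosa cells by targeting SMAD4, had 148, 130 and 103 in DF and 185, 167 and 136 in SF at day 3, and 11.1, 6.65 and 15.3 in DF and 172, 111 and 98.4 in SF at day 7. The groups overlapped at day 3, and the interaction was 3.10 (standard error 0.42, adjusted p = 2.74e-05, edgeR). For miR-452 it was 2.79 and for miR-3431 3.80. Of the other miRNAs linked to steroidogenesis, miR-378 had -0.39 and miR-383 had 3.33, and neither passed the test, nor did miR-378b and miR-378c, so that 2 of 6 of this list were called, beside 26.5% of all miRNAs tested.

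MiR-335, which lies within the imprinted gene MEST, had the largest positive interaction among miRNAs with at least 10 normalized counts, 4.39 (standard error 0.46, adjusted p = 2.26e-06, edgeR). DF held 148, 177 and 126 at day 3 and 5.99, 15 and 6.3 at day 7, while SF held 353, 233 and 329 at day 3 and 251, 339 and 483 at day 7. SF was above DF in every library on both days. The difference at day 3, 0.97 (adjusted p = 0.000426, edgeR), was just under the threshold of 1. In the single fit over the 12 libraries it was 1.02. The difference was thus present at day 3 and wider at day 7.

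MiR-202, miR-10b and miR-6526 differed widely in abundance. MiR-202, an miRNA of gonads, had 3130, 3673 and 3172 in DF and 2414, 2750 and 2838 in SF at day 3, and 753, 364 and 976 in DF and 2474, 2213 and 2243 in SF at day 7. MiR-10b, which lies in a HOX cluster, had 44414, 31854 and 27818 in DF and 41374, 39675 and 44712 in SF at day 3, and 14727, 16216 and 15530 in DF and 51314, 58693 and 72455 in SF at day 7. MiR-6526 had 57.9, 308 and 108 in DF and 166, 91.5 and 147 in SF at day 3, and 6.84, 4.99 and 3.6 in DF and 91.8, 74.8 and 92.6 in SF at day 7. In the same order their interactions were 2.04, 1.70 and 4.26, with standard errors of 0.35, 0.24 and 0.73 and adjusted p values of 0.000307, 4.11e-05 and 0.000307 (edgeR). DF stood slightly above SF in every library for miR-202 at day 3 and the groups overlapped for the other 2.

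MiR-92b also turned without being called at day 3. It had 1774, 1893 and 1985 in DF and 1562, 1074 and 946 in SF at day 3, and 316, 279 and 419 in DF and 1935, 1172 and 1279 in SF at day 7, with an interaction of 2.77 (standard error 0.33, adjusted p = 7.54e-06, edgeR). The libraries were separate in opposite directions on the 2 days, a mirror image of miR-199a-3p. In the miR-15 and miR-16 family, which restrains the cell cycle by targeting cyclins, 4 of 8 members were called and all were positive, beside 12.2% with a positive call among all miRNAs tested. They were miR-15b (1.63), miR-16b (1.32), miR-195 (1.61) and miR-497 (1.96), which are the members of 2 neighbour pairs, while miR-15a and miR-16a, a pair as well, had 0.80 and -0.16.

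The other list members with a called positive interaction and a mean of at least 10 normalized counts were miR-30e-5p (1.30), miR-99b (1.19), miR-148b (1.30), miR-450b (1.53), miR-2483-5p (1.74), miR-2285k (2.27) and miR-339a (1.30). MiR-339b listed the same counts as miR-339a and adds no measurement. Without SF replicate 1 of day 7 miR-99b had 0.90 and was not called. Outside the lists, miR-592 (2.53), miR-1343-3p (2.50), miR-744 (2.23) and miR-190b (3.36) were among the largest.

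The 38 miRNAs that were higher in SF at day 7 held 31.3% ± 2.75 of the reads in DF at day 3 and 10.4% ± 0.65 at day 7, and 30.2% ± 1.11 and 31.8% ± 1.70 in SF. Those lower in SF held 2.53% ± 0.46 and 13.8% ± 2.33 in DF and 3.24% ± 0.34 and 3.12% ± 0.74 in SF on the same days. In both sets the ranges of the SF libraries overlapped between the days, and those of the DF libraries did not. These miRNAs were chosen by their interaction and day 7 difference, so the shift of their shares describes them and tests nothing. MiR-10b and miR-99b held most of the reads of those higher in SF.

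**Figure D4:**
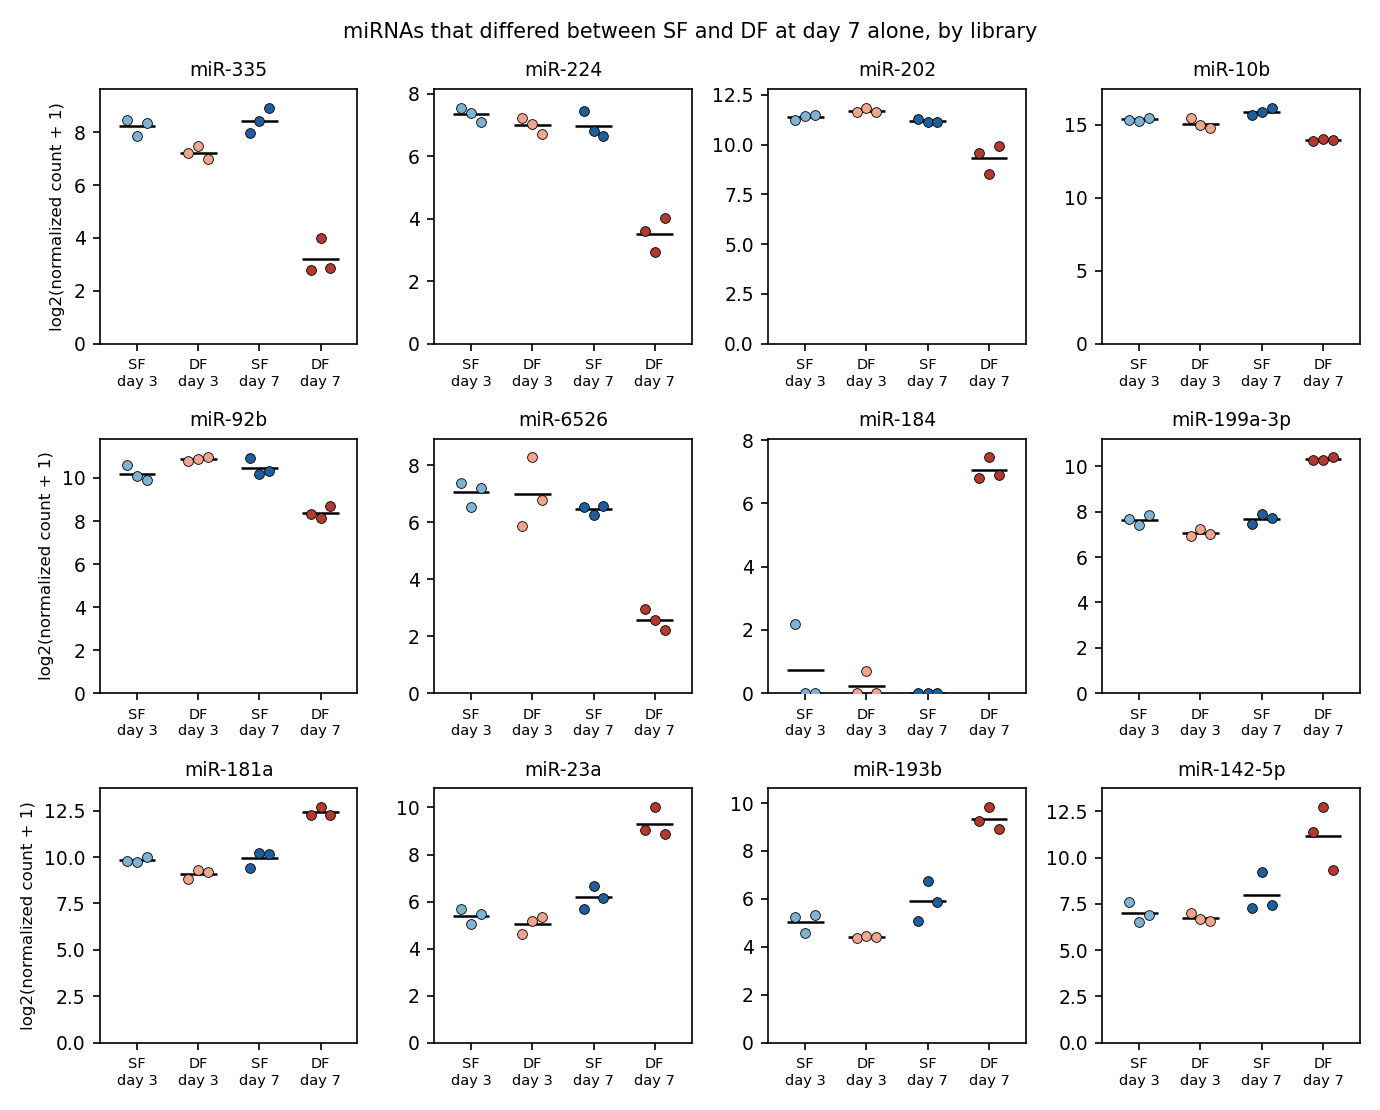
Log2(normalized count + 1) of 12 miRNAs that were called between the follicle classes at day 7 alone, in each of the 12 libraries; points are libraries, bars are group means of the plotted values, and each panel has its own vertical axis from 0. The first 6 miRNAs, from miR-335 to miR-6526, are lower and the last 6 higher in the DF libraries of day 7 than in every other library, and miR-142-5p has a wide spread among the DF libraries of day 7.

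The 15 miRNAs called on neither day all had opposite signs on the 2 days. Apart from miR-30b-3p, which had too few reads at day 7 to be tested, their differences were too small or too variable for single-day thresholds. MiR-191 had 11008, 11628 and 12514 in DF and 8856, 8783 and 9480 in SF at day 3, and 5030, 5915 and 5402 in DF and 11712, 7902 and 8801 in SF at day 7. Its libraries were separate on both days in opposite directions, although the log2 differences were only -0.42 and 0.87, and the interaction was 1.17 (standard error 0.22, adjusted p = 0.000749, edgeR), and 0.98, under the threshold, without SF replicate 1 of day 7. MiR-100, a member of the miR-99, miR-100 and miR-125 clusters, showed the opposite pattern with 0.51 and -0.95 and an interaction of -1.57 (standard error 0.37, adjusted p = 0.00389, edgeR), whereas its relative miR-99b was positive. MiR-132, which gonadotropins are known to induce in granulosa cells, had an interaction of -2.08 (standard error 0.67, adjusted p = 0.0287, edgeR), lost at -1.62 without SF replicate 3 of day 3, and its neighbour miR-212 one of -1.89 that did not pass (adjusted p = 0.192, edgeR).

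MiR-2904 had 0.751, 0.611 and 2.93 in DF and 5.35, 2.69 and 8.55 in SF at day 3, and 3.42, 93.1 and 3.6 in DF and 5.35, 2.02 and 9.75 in SF at day 7. Its interaction of -4.40 was called in 15 of 25 alternatives and, with the single high library left out (DF replicate 2 of day 7), was -1.31 and not called. It was not called either, at -4.44 to -4.02, when SF replicate 1 or 3 or DF replicate 1 or 2 of day 3, or SF replicate 1 of day 7, was left out alone. MiR-20b was called in 13 of 25 and miR-2373-3p in 7 of 25 alternatives. The class as a whole depended most on the settings. Of its 15 miRNAs, 2 were called in every alternative that tested them, against 60 of the 76 that appeared and all 7 reversed ones.

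Some miRNAs had no read in any library of a group and a mean of at least 5 raw reads in another. Besides miR-184 and miR-365-5p, which had none in SF at day 7, these were miR-2332 and miR-409a, with none in DF at day 7, miR-1249 and miR-129-3p, with none in DF at day 3, and miR-346 and miR-2285t, with none in either group of day 3. Only miR-184, miR-365-5p and miR-409a were called. MiR-409a, of the imprinted DLK1-DIO3 cluster, had 17 reads in DF and 11 in SF at day 3 and 11 in SF at day 7, so that DF of day 7 was at least 4.09-fold lower than DF of day 3 and at least 3.37-fold lower than SF of day 7, and its interaction of 4.96 (adjusted p = 0.0742, edgeR) was called in 13 of 25 alternatives. MiR-2332 had 15 reads in DF of day 3, and 29 and 26 in SF on the 2 days, and DF of day 7 was at least 7.96-fold lower than SF of that day, but its interaction of 4.66 did not pass (adjusted p = 0.149, edgeR). The bounds set 3 reads over the 3 libraries of the group without reads. MiR-346 and miR-2285t had 32 and 27 reads in DF at day 7 and 3 each in SF. With no read at day 3 the fitted interaction of each is no measured value, and neither was called. At this depth an absence in these libraries cannot be told from a low level.

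Many lists had few or no called members. The let-7 family, which is abundant in differentiated cells, had interactions from -0.50 to 0.47 in its 10 members and none was called. Neither of the 2 miR-26 members was called (-0.09 and 0.32), nor any of the 8 tested of the miR-500, miR-532 and miR-660 cluster. In the miR-17-92 cluster and its relatives, which drive proliferation, 2 of 14 were called, both positive, and these were miR-92b and miR-20b. The numbered cattle miRNAs from miR-2286 to miR-2489 had 5 positive and no negative calls among 58 and a median of 0.68, the ruminant miR-2284 and miR-2285 family 2 positive calls among 32 and a median of 0.36, and the DLK1-DIO3 cluster 1 positive call among 16 and a median of 0.76. All 3 shares lie below the 26.5% of all miRNAs tested, and of their members 54, 22 and 15, in the same order, had a mean of under 10 normalized counts.

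**Figure D5:**
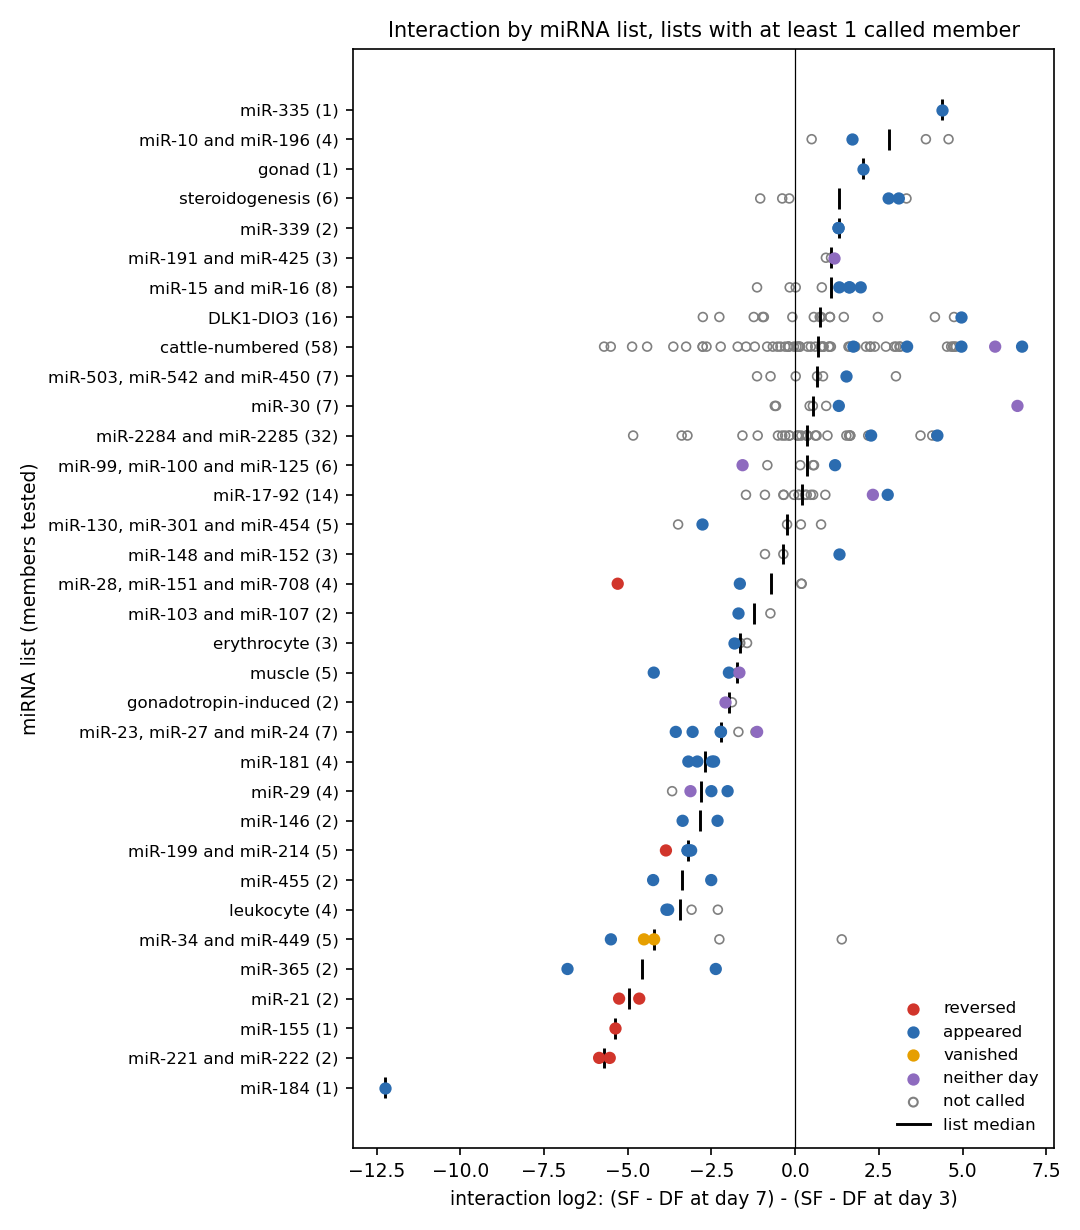
Interaction on the log2 scale (horizontal axis) of the tested members of each list with at least 1 called member (vertical axis, number tested in parentheses); filled points are called and coloured by class, open points are not called, and the vertical tick is the list median. In the lists from miR-184 up to miR-28, miR-151 and miR-708 every called member is negative, and in those from miR-335 down to miR-2284 and miR-2285 every called member is positive.

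The share of called miRNAs depended on abundance. It was 2.70% of 74 miRNAs with a mean of under 1 normalized count, 13.4% of 119 from 1 to under 10, 40.0% of 75 from 10 to under 100, 53.5% of 71 from 100 to under 1000 and 35.9% of 39 with at least 1000. The reversed miRNAs were found in the 3 upper ranges, 2, 3 and 2 in this order.

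Arms and neighbours that were called had the same sign. Both arms were tested for 34 precursors and both were called for 5, miR-21, miR-199a, miR-365, miR-455 and miR-2483, with the same sign in each. In 8 further pairs a single arm was called and the signs were also the same, and over all 34 pairs they were the same in 28. By the RefSeq gene table (assembly ARS-UCD2.0), which names the precursor of 373 of the 378 miRNAs and was used only for neighbourhood, 122 of the tested miRNAs lay in 39 groups of precursors spaced by at most 10000 bases. In 12 of these groups at least 2 miRNAs were called, and in none did called members have opposite signs. Members of a group can share a transcript, and the arms of a precursor do, so these are not separate observations.

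Lists of miRNAs that mark other cell types were followed beside these results. The 4 leukocyte miRNAs were at 108 to 220 normalized counts in sum in SF and 116 to 162 in DF at day 3, and at 184 to 705 in SF and 783 to 8636 in DF at day 7. The level was thus highest in DF of day 7 and varied there by more than in any other group. MiR-142-5p, made in blood cells, had 128, 101 and 92.8 in DF and 194, 90.2 and 118 in SF at day 3, and 2636, 6845 and 643 in DF and 151, 597 and 171 in SF at day 7, with an interaction of -3.79 (standard error 0.89, adjusted p = 0.00412, edgeR). MiR-150, of mature lymphocytes, had 34.6, 13.4 and 34.2 in DF and 25, 16.2 and 42.8 in SF at day 3, and 465, 1776 and 135 in DF and 32.1, 105 and 34.1 in SF at day 7, with an interaction of -3.84 (standard error 1.04, adjusted p = 0.0103, edgeR). Without DF replicate 2 of day 7, the library with the most leukocyte miRNA, the interactions were -2.72 for miR-142-5p (adjusted p = 0.0351, edgeR) and -2.42 for miR-150 (adjusted p = 0.0701, edgeR), and both were still called. Of the defining markers, miR-142-3p had no read in any library of day 3 and at most 6.65 normalized counts at day 7, miR-223 of myeloid cells had at most 8.32 in any library, and neither was called.

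Among the day 7 libraries, replicate 2 held the most leukocyte miRNA in both groups. In DF it also held the most of miR-146a and miR-146b, known from innate immune signalling, with 618, 1394 and 256 of the former and 2237, 5314 and 829 of the latter in DF. The reversed miRNAs were not ordered alike among the DF libraries of day 7: miR-155, miR-221, miR-222 and miR-708 were highest in replicate 2, and both arms of miR-21 and miR-214 were lowest there. Among the SF libraries of day 7 all 7 were highest in replicate 2, miR-214 by a small margin. Without both replicate-2 libraries of day 7, an analysis added after the data were seen, 104 interactions were called, of which 9 were reversed, 77 appeared and 1 vanished, and the interactions of the 7 reversed miRNAs were called again. The DF libraries of day 7 that remained still summed to 783 and 3110 in leukocyte miRNA, and the SF ones to 184 and 209. The groups thus still differed in it, and the part of leukocytes was not tested.

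The muscle list, dominated by miR-143, summed to 2207 to 3898 normalized counts in DF at day 3 and 6733 to 14206 at day 7, with 3696 to 4899 and 2872 to 4912 in SF. The erythrocyte list summed to 737 to 1087 and 808 to 2322 in DF and to 315 to 1642 and 438 to 515 in SF. Within it miR-451 had an interaction of -1.82 (adjusted p = 0.0363, edgeR) that was lost without SF replicate 1 of day 3, at -0.93, and without DF replicate 2 of day 7, at -1.36, and miR-486 (-1.44) and miR-144 were not called. The endothelial miR-126 arms summed to 61.6 to 101 in DF and 103 to 131 in SF at day 3 and to 130 to 160 and 90.9 to 221 at day 7, and were not called, with -0.91 and -0.29. Of the epithelial list none of 7 was called. It summed to 91.7 to 214 in DF and 39.1 to 102 in SF at day 3 and to 479 to 598 and 74 to 847 at day 7, most of it from miR-182 and miR-183, and its members miR-141, miR-200a, miR-200b and miR-429 were at 0 in many libraries. The part of these cell types in the interaction was not tested.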

How the data were processed

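Small RNA of 12 granulosa cell libraries was sequenced. As the methods of the study state, the authors called bases with CASAVA (version 1.8.0 per the labels), used cutadapt for trimming, mapped to the bovine genome and counted reads on the bovine miRNAs of miRBase with miRDeep2. The deposited values are raw counts per pair of mature miRNA and precursor, not normalized. Reads that match several precursors are listed at each, so that the entry with the highest total stood for each name, which applied to 73 names.

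Counts were analysed in R 4.3.3 with edgeR 4.0.16, with median-of-ratios factors, a prior count of 0.125 and Benjamini-Hochberg adjustment of two-sided quasi-likelihood F tests. The interaction was fitted over all 12 libraries and each simple comparison in its own 6. Standard errors are the absolute log2 value over the square root of F. Log2 values of a single day come from its own fit, those between days within a follicle class from the 12-library fit. Depth limits precision, which for a group without reads is given by a limit of 3 reads and covers counting error only. The procedure was tested on simulated data.

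The members, lists and tests were chosen with earlier results of these data known. Named were the 12 largest interactions of each sign with a mean of at least 10 normalized counts, all reversed and vanished miRNAs, called list members with such a mean, miRNAs without reads in a group and at least 5 mean raw reads in another, and the cell type markers. Others were named after their values were seen. The lists were families, clusters and cell type markers, 40 in all, from knowledge of miRNA biology. Alternatives were DESeq2 1.42.0, other scalings, filters, entries, fits and thresholds, subsampling, a replicate block, and leaving out each library. Deviations of same-numbered libraries from their group means correlated weakly, from -0.19 to 0.21 over 185 miRNAs and all pairs of groups. Between SF and DF these correlations were -0.12 to 0.01 at day 3 and 0.08 to 0.13 at day 7.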

Additional observations from a re-analysis of the deposited data

Results flagged for a closer look

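The difference between the follicle classes was not the same on the 2 days, by the test of the interaction itself in edgeR, for 100 of 378 miRNAs. Listed here are the 12 largest interactions of each sign with a mean of at least 10 normalized counts, and all reversed and vanished miRNAs. On the negative side these were miR-184 (-12.24), miR-222 (-5.85), miR-221 (-5.54), miR-155 (-5.37), miR-708 (-5.30), miR-21-3p (-5.26), miR-21-5p (-4.66), miR-449c (-4.51), miR-2904 (-4.40), miR-449a (-4.21), miR-193b (-4.06), miR-214 (-3.86) and miR-150 (-3.84). On the positive side they were miR-335 (4.39), miR-6526 (4.26), miR-3431 (3.80), miR-190b (3.36), miR-224 (3.10), miR-452 (2.79), miR-92b (2.77), miR-592 (2.53), miR-1343-3p (2.50), miR-2285k (2.27), miR-744 (2.23) and miR-202 (2.04). The call of miR-184 was lost without SF replicate 1 of day 3, and that of miR-2904 without any one of 6 libraries. Some larger called values, such as -6.80 for miR-365-5p and 6.64 for miR-30b-3p, had lower mean counts and are not listed.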

How the results depend on the processing

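The 100 interactions ranged from 88 to 126 over 14 alternatives and from 90 to 106 when a library was left out. DESeq2 called 97. The number tested changed too, from 378 to 202 with a filter of 10 reads in 3 libraries and to 501 with all entries as listed. These settings called 88 and 126. All 100 miRNAs kept their sign under every alternative that tested them, and 70 were called in each of those. Calls between SF and DF at day 7 ranged from 85 of 188 tested to 164 of 464 and miRNAs that appeared from 66 to 100. At day 3, 19 calls of 335 tested became 11 with DESeq2 and 8 of 378 in a single fit. With the filter of 10 reads in 3 libraries they became 12 of 187. They became 10 to 21 with a library left out, 10 without SF replicate 1 of day 3. The 145 calls in DF between the days, of 360 tested, became 92 of 191 with the 10-read filter. The 2 calls in SF became 5 with DESeq2, 12 without a filter, 0 with the 10-read filter, 10 with all entries as listed, 7 with a replicate block, 1 in a single fit, 6 after subsampling, 0 without both replicate-2 libraries of day 7, and 0 to 20 with a library left out, 20 without SF replicate 1 of day 7.

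The 7 reversed miRNAs became 17 when differences were judged by size alone, and 5 to 8 with a library left out. The 2 that vanished became 0 with the 10-read filter, 4 with entries as listed, 5 with counts summed over precursors, 1 in a single fit, 1 without both replicate-2 libraries and 1 to 5 with a library left out. Same-direction calls, 0, became 2 without a filter, 2 with entries as listed, 1 with the replicate block within a day, 1 in a single fit and 0 to 1 with a library left out. The 15 called on neither day became 8 to 20, with 8 without replicate 2 of either group of day 3. With the replicate number as a block 106 interactions were called, and 96 with it within a day, but the labels do not tie the numbers to animals, and same-numbered libraries correlated at -0.19 to 0.21 in their deviations from the group means. The cause of these shifts was not tested.

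Of 1989 values of 77 named miRNAs, 1931 kept direction and call, 38 lost and 17 gained the call and 3 changed sign, all of miR-144 (-1.64), with 0.037 at a prior count of 2, 1.52 after subsampling and 1.13 without DF replicate 1 of day 7, its range with a library left out being -2.23 to 1.13. Scaling by library size moved the share of higher SF calls at day 7 from 45.3% to 39.3%.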
